A study of Homo sapiens with 6 samples.

Results

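The type I interferon response genes were 42 genes chosen by symbol: IFNB1, which encodes interferon beta, and 41 genes that interferon is known to induce or to signal through. Each symbol matched 1 of the 78686 rows of the deposited tables, and 40 of the 42 passed the filter on low counts. RNA was sequenced from THP-1, a human monocytic leukaemia line, in 2 groups of 3 biological replicates. PTX4-OE cells had been stably transduced with a construct that overexpresses PTX4, the gene of the soluble recognition protein pentraxin 4. EV cells had been stably transduced with the empty vector. Both groups were therefore transduced cells grown in the same serum-containing medium, the labels name no interferon or other stimulus for either, and they do not say whether each line is 1 clone or a pool. Replicates carry the numbers 1 to 3 in both groups, all 6 libraries have the same batch label, and what a number shares is not stated.

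Type I interferons are antiviral cytokines that bind the receptor chains IFNAR1 and IFNAR2. The kinases JAK1 and TYK2 then phosphorylate STAT2, which acts in a complex with IRF9 that binds the interferon-stimulated response element (ISRE) in the promoters of target genes. The targets block viral entry, copying and translation, sense foreign RNA, and include both amplifiers such as IRF7 and the brake USP18. Monocytes use this response against viruses and keep a low, tonic level of it without infection.

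The response element was looked for in promoters first, because it is what the response genes are known to share. RefSeq promoters on GRCh38.p14, running from 250 bases before to 50 after a gene's start, were found for 33 of the 42 genes. The core of the element, GAAA followed by any 2 bases and a further GAAA, stood on either strand in 24 of the 33. That was 72.7% (exact 95% binomial interval 54.5% to 86.7%), against 4.38% of all 27305 genes in the promoter table. The interval treats the genes as independent draws, although they are a chosen list that includes families of neighbouring genes. The gamma-activated sequence TTCNNNGAA stood in 11 of the 33 (33.3%) and in 9.38% of all genes, and a match of one motif can share bases with the other. The 8 stretches that follow run from base -170 to base -31 before the first start listed for a gene, 5′ to 3′ on the gene's strand, with each match of the response-element core on either strand in capitals. Overlapping matches form 1 run of capitals. The first 6 belong to the genes with a promoter that had the largest F statistics of replicate number, a rank of precision as well as size. The last 2 belong to genes whose RNA went the opposite way.
IFIT3 promoter, chr10:89327827-89327966, plus strand: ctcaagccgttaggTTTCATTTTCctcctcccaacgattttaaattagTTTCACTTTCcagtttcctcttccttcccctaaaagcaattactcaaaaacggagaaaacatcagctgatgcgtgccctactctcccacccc
ISG15 promoter, chr1:1013327-1013466, plus strand: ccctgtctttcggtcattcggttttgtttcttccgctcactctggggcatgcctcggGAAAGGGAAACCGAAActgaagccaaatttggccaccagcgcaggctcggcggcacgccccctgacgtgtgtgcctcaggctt
HERC5 promoter, chr4:88456949-88457088, plus strand: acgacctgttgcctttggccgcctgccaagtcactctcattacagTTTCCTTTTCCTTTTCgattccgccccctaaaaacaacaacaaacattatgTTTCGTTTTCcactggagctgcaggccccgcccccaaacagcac
IFI6 promoter, chr1:27672223-27672362, minus strand: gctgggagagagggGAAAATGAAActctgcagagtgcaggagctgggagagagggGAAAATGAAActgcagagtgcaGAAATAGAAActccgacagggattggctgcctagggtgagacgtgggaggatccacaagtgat
IFIT1 promoter, chr10:89392453-89392592, plus strand: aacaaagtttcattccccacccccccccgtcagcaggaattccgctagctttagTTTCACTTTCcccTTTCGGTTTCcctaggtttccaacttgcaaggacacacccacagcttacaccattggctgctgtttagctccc
BST2 promoter, chr19:17405661-17405800, minus strand: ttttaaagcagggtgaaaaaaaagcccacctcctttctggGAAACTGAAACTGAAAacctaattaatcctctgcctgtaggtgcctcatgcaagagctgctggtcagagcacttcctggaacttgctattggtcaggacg
XAF1 promoter, chr17:6755876-6756015, plus strand: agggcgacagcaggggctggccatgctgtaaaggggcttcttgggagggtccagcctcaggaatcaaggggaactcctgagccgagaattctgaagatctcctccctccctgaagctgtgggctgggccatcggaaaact
STAT2 promoter, chr12:56360138-56360277, minus strand: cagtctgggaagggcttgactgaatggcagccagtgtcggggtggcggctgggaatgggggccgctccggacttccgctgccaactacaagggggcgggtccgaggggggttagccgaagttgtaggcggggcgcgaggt
The first 6 stretches held 2 or 3 matches each, and those of XAF1 and STAT2 held 0. The first listed start of IFIT3 is 1 of 2 in the table, as is that of XAF1, and the others have 1. A match is a description of these letters only, and its absence says only that they are not in this window. Of the 8 tested response genes whose promoters lacked the core, 5 were called with number 1 above number 3. Of the 23 that held it, 21 were.

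Library totals were 37718207, 31078642 and 37240283 expected counts in PTX4-OE replicates 1 to 3 and 32653460, 29670641 and 32691577 in EV replicates 1 to 3. PTX4 itself had 24633, 14398 and 15782 counts in the PTX4-OE libraries, against 0, 3 and 4 in the EV libraries, as the labels state. Of the monocyte markers, SPI1 (252.5 to 287 TPM over 6 libraries), FCGR1A (135 to 160 TPM) and CD33 (36.2 to 40.4 TPM) were abundant. Low levels were those of CD14 at only 0.84 to 1.83 TPM, ITGAM at 2.34 to 3.31 TPM and MPO at 4.07 to 8.39 TPM. Of 5 markers of plasmacytoid dendritic cells, the main interferon-producing cells of blood, CLEC4C and GZMB were listed at 0 in 5 of 6 libraries each and LILRA4 at 0.08 TPM or less. IL3RA stood at 3.50 to 6.50 TPM and TCF4 at 1.84 to 3.06 TPM. T-cell and B-cell markers CD3D, CD3E and MS4A1 and the epithelial marker EPCAM were listed at 0 in all 6.

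PTX4-OE and EV did not differ detectably in any of the 40 tested genes by the test of all 6 libraries with the filter on low counts. With edgeR's quasi-likelihood test on all 17627 tested genes, 0 of the 40 tested interferon response genes passed a Benjamini-Hochberg adjusted p of 0.05, beside 0.00567% of all genes, which was PTX4 alone. At an unadjusted p under 0.05 the count was also 0, and DESeq2 and limma-voom called 0 as well. The fitted log2 fold changes ran from -0.49 (IFI27) to 0.22 (IFIT5), 23 negative and 17 positive, with a median of -0.051 beside 0.008 over all genes tested. The interval of the difference was wide: at the 95% level it excluded a change beyond 2-fold for 22 of the 40, and for IFI6 it ran from -2.04 to 1.57.

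Same-numbered libraries deviated together, so the comparison was repeated with replicate number as a block, and again 0 of the 40 genes passed, beside 0.261% of all genes (0.0284% higher and 0.233% lower in PTX4-OE). Under this fit the median log2 fold change was -0.025, and all 40 confidence intervals lay within 2-fold, with 39 within 1.5-fold. These intervals lean on spread shared across genes, so they do not exclude larger changes in a single gene. For IFI44L the interval ran from -0.547 to 0.465, while PTX4-OE minus EV was -0.83, -0.23 and 1.45 in numbers 1, 2 and 3. Of the 40 genes, 4 had an unadjusted p under 0.05. IFIT2 was at -0.19 (SE 0.067), IFIT5 at 0.25 (SE 0.12), IRF7 at 0.23 (SE 0.087) and IRF9 at 0.20 (SE 0.080), with edgeR adjusted p values of 0.375, 0.563, 0.414 and 0.489. The calls depended on the filter: with blocks and no filter, an alternative chosen after seeing the data, edgeR called 4 of the 42 genes, beside 0.863% of all genes. OAS1 was higher in PTX4-OE at 0.28 (SE 0.077, adjusted p = 0.036), OAS3 at 0.24 (SE 0.063, adjusted p = 0.0219) and IRF7 at 0.24 (SE 0.063, adjusted p = 0.023), beside 0.309% of all genes called higher. IFI27 was lower at -0.31 (SE 0.066, adjusted p = 0.000841), beside 0.554% called lower. None of the 4 had the same sign of PTX4-OE minus EV in all 3 replicate numbers, and their fold changes with the filter were 0.28 (SE 0.13), 0.24 (SE 0.12), 0.23 (SE 0.087) and -0.32 (SE 0.18), with larger standard errors. The monocyte markers CSF1R, MNDA and MPO and the mitochondrial mRNA MT-ND1 were called lower in PTX4-OE by the fit with blocks and the filter, and their part in the values above was not tested.

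Most of the response genes differed between replicate numbers. Of the 40 tested genes, 27 had number 1 above number 2 above number 3 in both constructs, beside 24.5% of all genes. The others included STAT2 and XAF1, which were highest in number 3, and RSAD2, which was lowest in PTX4-OE replicate 1. Summed over the 42 genes, deposited TPM was 1979, 1756 and 1216 in PTX4-OE replicates 1 to 3 (mean 1650.4 ± 392, SD, n = 3), against 2329, 1834 and 984.5 in EV replicates 1 to 3 (mean 1716 ± 680.2, SD, n = 3). The PTX4-OE values lie inside the range of the EV values, and the library numbered 1 was 1.63 times that numbered 3 in PTX4-OE and 2.37 times in EV. Without the 3 most abundant genes, BST2, IFITM2 and IFI27, the sums were 1143, 922 and 686 TPM in PTX4-OE, against 1351, 928 and 529 TPM in EV. From bulk RNA, fewer responding cells and less RNA per cell cannot be told apart.

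The F test of replicate number, from the same edgeR model with construct as covariate, passed 37 of the 40 tested genes at an adjusted p of 0.05, beside 51.6% of all genes. The test thus called about as many genes as it did not call, and the interferon response genes are read against that. A gene not called is not shown to be unchanged. Of the 37, 35 had number 1 above number 3, beside 27.4% of all genes called in that direction, and 2 had it below, beside 24.1%. The median log2 difference of number 1 from number 3 was 0.95 for the 40 genes and -0.026 over all genes tested. This fitted difference was positive for 37 of 40 genes with TMM or DESeq2 size factors and for 36 on log2(TPM + 1), where that of MX1 was negative and the median of all genes was -0.065. Where a difference is given for each construct, it is between log2 normalised CPM of single libraries. Both number 1 libraries stood above both number 3 libraries for 36 of 40 genes, beside 37.3% of all genes. Number 1 stood at least 2-fold above number 3 in each construct for 15 of 40, beside 1.33% of all genes. The test rests on 2 libraries for each number, and p-values measure only the spread between these libraries.

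**Figure D1:**
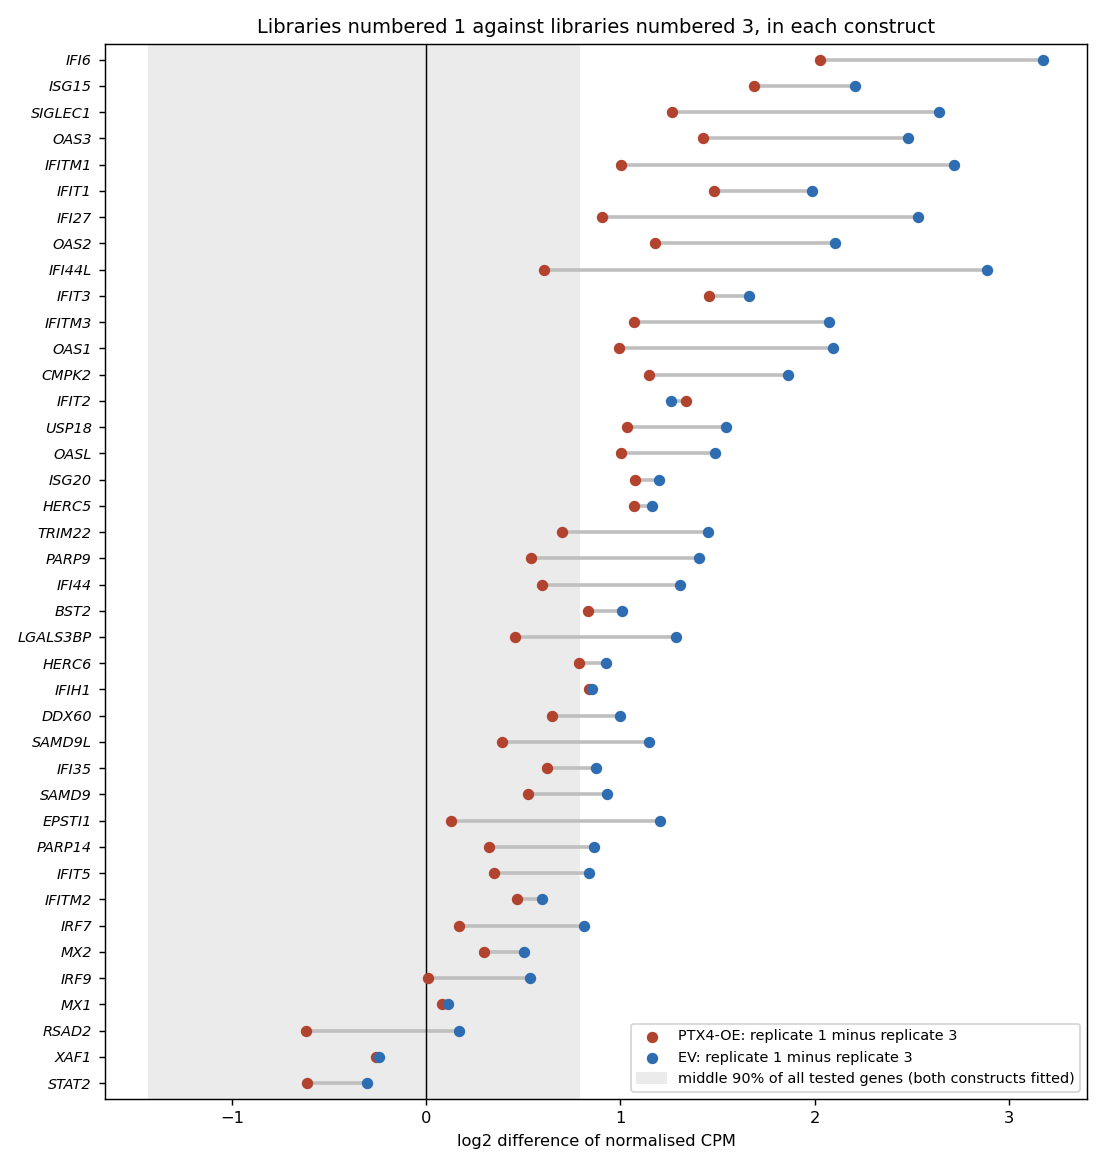
Log2 difference of normalised CPM between the library numbered 1 and that numbered 3, for each of the 40 tested genes, in PTX4-OE (red) and EV (blue), with the middle 90% of fitted differences of all tested genes shaded. IFI6 lies farthest right at 2.03 in PTX4-OE and 3.17 in EV, and STAT2 and XAF1 lie left of 0 in both constructs.

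Interferon itself and the chemokine CXCL10 were close to the limit of detection and did not pass the filter on low counts. IFNB1 (ENSG00000171855.7, chromosome 9, 21077104 to 21077942, minus strand, GRCh38) had 4, 2 and 0 counts in PTX4-OE replicates 1 to 3, against 20, 7 and 2 in EV replicates 1 to 3, or 0.25, 0.15 and 0 TPM in PTX4-OE, against 1.43, 0.55 and 0.14 TPM in EV. It was highest in EV replicate 1 and the groups overlapped, while PTX4-OE had fewer counts than EV within each replicate number. With no filter its log2 fold change was -2.35 (SE 1.01, edgeR adjusted p = 1) without blocks and -2.36 (SE 0.95, unadjusted p = 0.0129, edgeR adjusted p = 0.443) with them, and its F test of replicate number gave an adjusted p of 0.0565. CXCL10, which attracts T cells, had 13, 4 and 0 counts in PTX4-OE, against 15, 3 and 1 in EV. Its level also lay highest in both number 1 libraries, and with no filter the F test of number gave an edgeR adjusted p of 0.00465. Of 19 other type I and type III interferon genes, 16 had 0 counts in all 6 libraries, and the highest of the rest, IFNL1, had 0 to 4 counts per library.

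Of the 3 transcription factors, IRF7 passed the F test with number 1 above number 3, STAT2 passed with number 1 below, and IRF9 did not pass. STAT2, an activating subunit of that complex (ENSG00000170581.15, chromosome 12, 56341597 to 56360203, minus strand), stood at 22.2, 24.3 and 36.2 TPM in PTX4-OE replicates 1 to 3, against 24.3, 22.7 and 31.8 TPM in EV replicates 1 to 3. It was highest in both libraries numbered 3, opposite to most of the genes, and its fitted difference of number 1 from number 3 was -0.46 (edgeR adjusted p = 6.1e-05). IRF9, which gives the STAT complex its DNA contact, stood at 32.9, 30.98 and 31.3 TPM in PTX4-OE, against 32.7, 26.4 and 21.8 TPM in EV. Its 3 PTX4-OE libraries were nearly level while the EV libraries spread, and the F test of number did not pass (edgeR adjusted p = 0.0892). IRF7, which amplifies interferon transcription, stood at 36.1, 31.7 and 34.6 TPM in PTX4-OE, against 37.5, 26.6 and 22.5 TPM in EV, lowest in EV replicate 3, with an edgeR adjusted p of 0.00347 for number. Without EV replicate 1 that test of IRF7 did not pass (edgeR adjusted p = 0.128). The groups overlapped for all 3 factors.

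The 4 genes of the ISG15 system all rose in the number 1 libraries relative to number 3. ISG15, a ubiquitin-like protein that interferon induces strongly (ENSG00000187608.10, chromosome 1, 1001138 to 1014540, plus strand), stood at 155, 95.4 and 51.5 TPM in PTX4-OE replicates 1 to 3, against 177, 102 and 39.8 TPM in EV replicates 1 to 3. Log2 differences of number 1 from number 3 were 1.69 in PTX4-OE and 2.21 in EV, with F = 183 and an edgeR adjusted p of 1.99e-08. USP18, which removes ISG15 from proteins and brakes the interferon receptor, stood at 34.5, 26.4 and 18.02 TPM in PTX4-OE, against 35.8, 23.1 and 12.9 TPM in EV. HERC5, the ligase that attaches ISG15, stood at 36.7, 29.4 and 18.2 TPM in PTX4-OE, against 39.8, 29.9 and 18.7 TPM in EV. HERC6, its relative, stood at 4.49, 3.31 and 2.78 TPM in PTX4-OE, against 4.83, 3.14 and 2.69 TPM in EV. All 4 had number 1 above number 2 above number 3 in each construct, beside 24.5% of all genes. HERC5 differed little between constructs, with log2 differences of 1.07 in PTX4-OE and 1.16 in EV.

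The IFIT proteins, of which IFIT1 binds viral RNA that lacks the host's cap marks, are encoded side by side on chromosome 10. IFIT3 had the largest F statistic of the 40 genes (213, edgeR adjusted p = 1.85e-08). It stood at 30.3, 19.1 and 11.98 TPM in PTX4-OE replicates 1 to 3, against 34.05, 21.01 and 11.4 TPM in EV replicates 1 to 3. IFIT1 stood at 8.02, 5.47 and 3.08 TPM in PTX4-OE, against 8.71, 4.78 and 2.32 TPM in EV. IFIT2 stood at 15.9, 10.6 and 6.76 TPM in PTX4-OE, against 16.6, 13.1 and 7.35 TPM in EV, and it was the only one of the family whose difference of number 1 from number 3 was the larger in PTX4-OE, at 1.34 in PTX4-OE and 1.26 in EV. IFIT5 stood at 5.73, 4.56 and 3.88 TPM in PTX4-OE, against 4.31, 4.13 and 2.52 TPM in EV. All 4 IFIT genes passed the F test of number, beside 51.6% of all genes, IFIT5 with the smallest F (8.25, adjusted p = 0.00977). Without EV replicate 3 the fitted difference of number 1 from number 3 for IFIT5 was 0.31, against 0.57 with all 6 libraries. By the DESeq2 likelihood ratio test on all 6 libraries, IFIT5 did not pass (adjusted p = 0.0509).

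**Figure D2:**
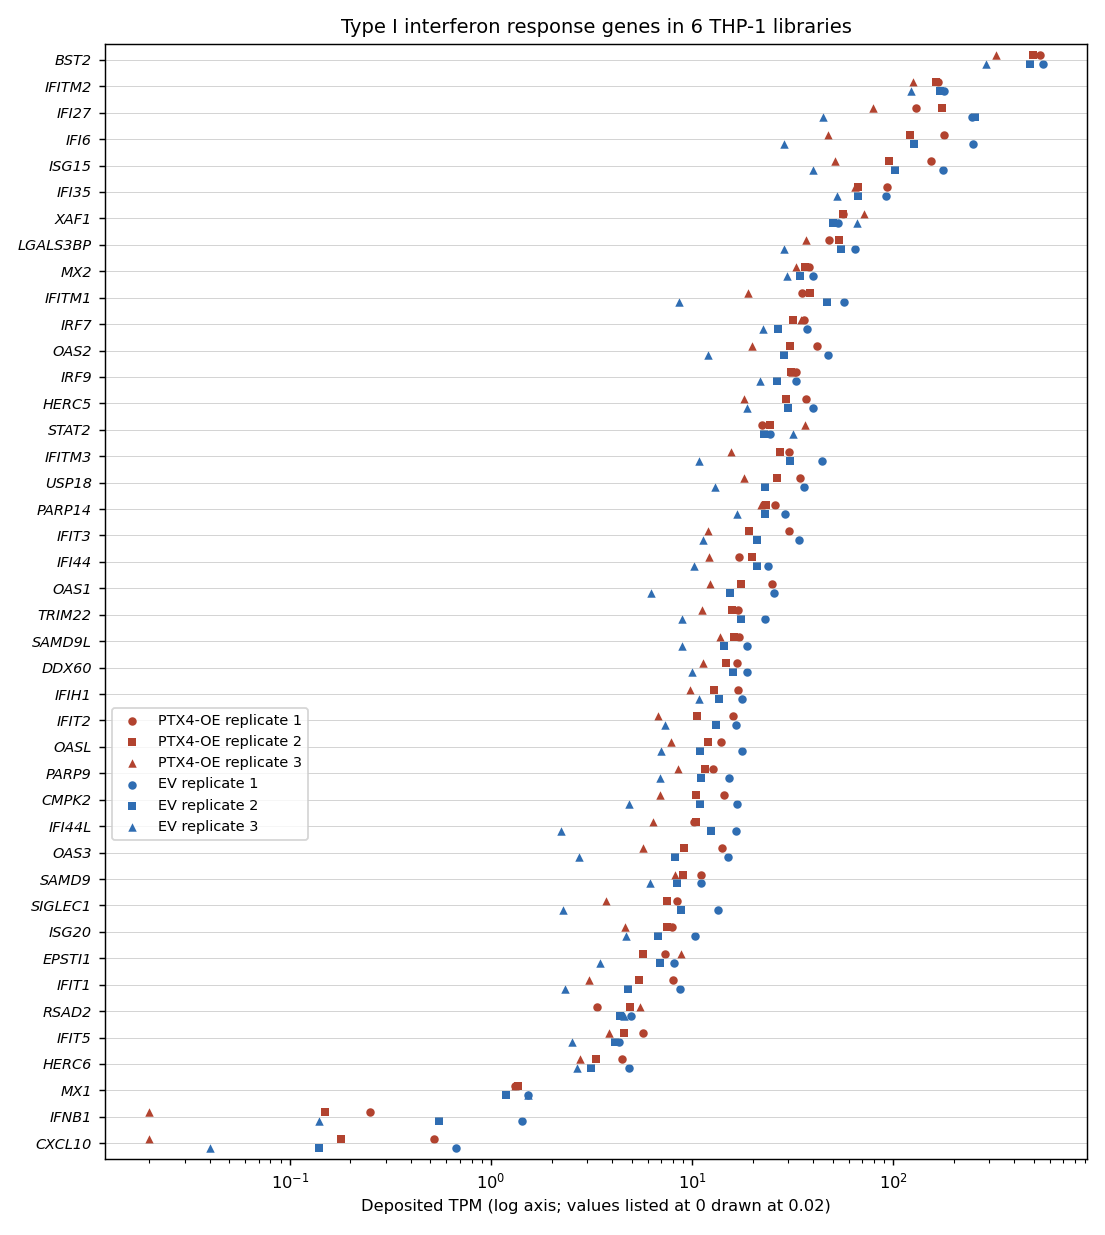
Deposited TPM of all 42 genes in the 6 libraries on a log axis, PTX4-OE in red above EV in blue, with circles, squares and triangles for replicates 1, 2 and 3. Triangles lie left of circles for most genes, from BST2 at 288 to 554 TPM down to IFIT1 at 2.32 to 8.71 TPM, while STAT2 and XAF1 run the other way.

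All 7 RNA sensors and RNA-degrading enzymes passed the F test with number 1 above number 3, beside 27.4% of all genes. The OAS enzymes, neighbours on chromosome 12, make the messenger that activates RNase L. OAS1 stood at 24.9, 17.5 and 12.3 TPM in PTX4-OE, against 25.5, 15.4 and 6.26 TPM in EV. OAS2 stood at 41.5, 30.5 and 19.9 TPM in PTX4-OE, against 47.2, 28.8 and 12.03 TPM in EV. OAS3 stood at 14.1, 9.11 and 5.68 TPM in PTX4-OE, against 15.00, 8.18 and 2.74 TPM in EV. For these 3 the EV library numbered 3 was the lowest of all 6, and the log2 difference of number 1 from number 3 was 1.42 in PTX4-OE and 2.48 in EV for OAS3. OASL, a relative that enhances RNA sensing, stood at 13.8, 11.9 and 7.81 TPM in PTX4-OE, against 17.7, 10.99 and 7.03 TPM in EV. IFIH1, also called MDA5 and a sensor of long double-stranded RNA, stood at 16.98, 12.9 and 9.73 TPM in PTX4-OE, against 17.6, 13.6 and 10.8 TPM in EV. DDX60, a helicase linked to RNA sensing, stood at 16.7, 14.8 and 11.4 TPM in PTX4-OE, against 18.8, 15.9 and 9.94 TPM in EV. IFIH1 had nearly the same difference in both constructs, 0.84 in PTX4-OE and 0.85 in EV. ISG20, an exonuclease, stood at 7.94, 7.52 and 4.63 TPM in PTX4-OE, against 10.3, 6.80 and 4.68 TPM in EV.

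Among genes that restrict viruses at membranes, 5 of 6 passed the F test with number 1 above number 3, beside 27.4% of all genes. BST2, or tetherin, which holds budding virions at the cell surface (ENSG00000130303.14, chromosome 19, 17402939 to 17405630, minus strand), had the highest level of the set: 539, 496 and 325 TPM in PTX4-OE replicates 1 to 3, against 554, 480.4 and 288 TPM in EV replicates 1 to 3. Number 3 was the low library in each construct, with log2 differences of 0.83 in PTX4-OE and 1.01 in EV (edgeR adjusted p = 6.2e-08). The IFITM proteins block fusion of viruses with endosomes. IFITM1 stood at 35.05, 38.6 and 18.9 TPM in PTX4-OE, against 56.7, 46.8 and 8.63 TPM in EV. IFITM2 stood at 167, 164 and 126 TPM in PTX4-OE, against 179, 171 and 122 TPM in EV. IFITM3 stood at 30.2, 27.4 and 15.5 TPM in PTX4-OE, against 44.2, 30.8 and 10.8 TPM in EV. Differences of number 1 from number 3 were 1.00 in PTX4-OE and 2.72 in EV for IFITM1, 1.07 in PTX4-OE and 2.07 in EV for IFITM3 and, smallest of the 3, 0.47 in PTX4-OE and 0.59 in EV for IFITM2. The 3 genes are similar in sequence and had fractional counts, so the split of reads among them is uncertain.

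The MX genes, neighbours on chromosome 21 that encode dynamin-like GTPases, were apart in level. MX2, which blocks nuclear entry of retroviral genomes, stood at 37.96, 36.3 and 32.9 TPM in PTX4-OE, against 39.9, 34.2 and 29.6 TPM in EV, and passed (number 1 minus number 3 0.40, edgeR adjusted p = 0.000247). MX1, active against influenza virus, stood at only 1.31, 1.36 and 1.31 TPM in PTX4-OE, against 1.52, 1.19 and 1.53 TPM in EV. Its F test of number did not pass (edgeR adjusted p = 0.842), and on log2(TPM + 1) the fitted difference was slightly below 0. MX1 was also the 1 gene of 40 whose 3 PTX4-OE libraries all lay below the 3 EV libraries in normalised CPM, beside 2.12% of all genes, and 0 of 40 had all of them above, beside 2.09%. The TPM of the groups overlapped, the log2 fold change was -0.16 (SE 0.17) without blocks and -0.16 (SE 0.16) with them, and the test did not pass (edgeR adjusted p = 0.835 with blocks).

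Of 5 genes that restrict nucleotide supply or translation, 4 passed the F test with number 1 above number 3, beside 27.4% of all genes. CMPK2, a mitochondrial nucleotide kinase, stood at 14.3, 10.4 and 6.91 TPM in PTX4-OE, against 16.7, 10.96 and 4.88 TPM in EV. RSAD2, or viperin, which makes a chain-ending nucleotide, stood at 3.38, 4.91 and 5.49 TPM in PTX4-OE, against 4.98, 4.39 and 4.61 TPM in EV. The genes are divergent neighbours on chromosome 2. RSAD2 was lowest in PTX4-OE replicate 1, its log2 differences of number 1 from number 3 were -0.62 in PTX4-OE and 0.17 in EV, and its F test did not pass (edgeR adjusted p = 0.345). CMPK2 and RSAD2 overlap on opposite strands and had fractional counts, so reads may be shared. SAMD9 and SAMD9L, neighbours on chromosome 7 that repress translation, stood at 11.03, 8.98 and 8.21 TPM in PTX4-OE, against 11.1, 8.37 and 6.15 TPM in EV for SAMD9. SAMD9L stood at 17.03, 16.1 and 13.7 TPM in PTX4-OE, against 18.7, 14.3 and 8.86 TPM in EV. TRIM22, a ubiquitin ligase, stood at 16.9, 15.8 and 11.2 TPM in PTX4-OE, against 22.9, 17.5 and 8.86 TPM in EV. In all of these but RSAD2 the EV library numbered 3 was the lowest of the 6.

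PARP9 and PARP14, ADP-ribosyltransferases of the interferon response on chromosome 3, both passed the F test of number, beside 51.6% of all genes. PARP9 stood at 12.7, 11.5 and 8.49 TPM in PTX4-OE, against 15.3, 11.02 and 6.89 TPM in EV. PARP14 stood at 25.8, 23.4 and 22.1 TPM in PTX4-OE, against 28.9, 22.9 and 16.8 TPM in EV. The differences were smaller in PTX4-OE, 0.32 in PTX4-OE and 0.86 in EV for PARP14, and on log2(TPM + 1) with limma PARP14 had an adjusted p of 0.0561. PARP9 overlaps DTX3L, whose own difference was 0.079 (edgeR adjusted p = 0.229).

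The other induced proteins included the most variable genes. IFI6, which blocks viral remodelling of the endoplasmic reticulum (ENSG00000126709.16, chromosome 1, 27666064 to 27672212, minus strand), stood at 179, 121 and 47.2 TPM in PTX4-OE replicates 1 to 3, against 248, 127 and 28.8 TPM in EV replicates 1 to 3. EV replicate 1 was the highest and EV replicate 3 the lowest of the 6 libraries, with log2 differences of 2.03 in PTX4-OE and 3.17 in EV (edgeR adjusted p = 4.56e-08). IFI27, a mitochondrial protein, stood at 130.3, 174 and 79.5 TPM in PTX4-OE, against 245, 255 and 44.5 TPM in EV. IFI44L stood at 10.2, 10.5 and 6.42 TPM in PTX4-OE, against 16.5, 12.4 and 2.24 TPM in EV. IFI44, its neighbour on chromosome 1, stood at 17.1, 19.9 and 12.2 TPM in PTX4-OE, against 23.9, 21.1 and 10.2 TPM in EV. In PTX4-OE, number 2 was the highest library for IFI27, IFI44 and IFI44L, and number 3 was the lowest in each construct. IFI35, a leucine-zipper protein, stood at 92.8, 66.5 and 64.7 TPM in PTX4-OE, against 91.8, 66.8 and 52.6 TPM in EV. EPSTI1 stood at 7.35, 5.69 and 8.80 TPM in PTX4-OE, against 8.14, 6.92 and 3.47 TPM in EV, with PTX4-OE replicate 3 the highest in TPM, and without EV replicate 1 its F test did not pass (edgeR adjusted p = 0.317). XAF1, a promoter of apoptosis, stood at 55.95, 56.5 and 71.8 TPM in PTX4-OE replicates 1 to 3, against 53.2, 50.3 and 66.02 TPM in EV replicates 1 to 3. It was highest in both number 3 libraries, with log2 differences of -0.26 in PTX4-OE and -0.24 in EV (edgeR adjusted p = 0.00114). XAF1 and STAT2 were thus the 2 genes called with number 1 below number 3.

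Of secreted and surface proteins, SIGLEC1, the sialic-acid receptor of interferon-exposed monocytes (ENSG00000088827.14, chromosome 20, 3686970 to 3712600, minus strand), stood at 8.38, 7.49 and 3.74 TPM in PTX4-OE replicates 1 to 3, against 13.5, 8.84 and 2.28 TPM in EV replicates 1 to 3. Number 3 was low in both constructs, with log2 differences of 1.26 in PTX4-OE and 2.64 in EV (edgeR adjusted p = 2.67e-06). LGALS3BP, a secreted galectin ligand, stood at 48.02, 53.6 and 36.7 TPM in PTX4-OE, against 64.6, 55.03 and 28.8 TPM in EV. It was lowest in EV replicate 3, and both genes passed the F test of number, beside 51.6% of all genes.

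The spread was wider in EV than in PTX4-OE for most of these genes. The range of log2 normalised CPM over the 3 libraries was larger in EV for 36 of 40, beside 39.3% of all genes, with a median of 0.81 in PTX4-OE and 1.23 in EV. Over all genes tested these medians were 0.478 in PTX4-OE and 0.432 in EV. The 4 genes with the wider range in PTX4-OE were IFIT2, MX1, RSAD2 and STAT2. The difference between the constructs' ranges was not tested, since each number is 1 library per construct.

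Within replicate numbers the sign of PTX4-OE minus EV changed. The median log2 difference over the 40 genes was -0.18 between the libraries numbered 1, -0.033 between those numbered 2 and 0.36 between those numbered 3, where the medians of all genes were 0.021, -0.004 and -0.001. PTX4-OE was the lower for 38 of 40 in number 1, beside 45.0% of all genes, and for 22 of 40 in number 2, beside 50.9%. In number 3 it was the higher for 34 of 40, beside 49.8%. For 32 of 40 it was lower in number 1 and higher in number 3, beside 20.5%. IFI44L had the widest reversal, with -0.83, -0.23 and 1.45 in numbers 1, 2 and 3, and IFITM1 had -0.69, -0.21 and 1.03. HERC5, IFIH1, IFIT2, IFITM2 and MX1 were lower in PTX4-OE in all 3, and XAF1 was higher in all 3 (0.055, 0.118 and 0.071). The share of all genes with the same sign in all 3 was not counted.

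**Figure D3:**
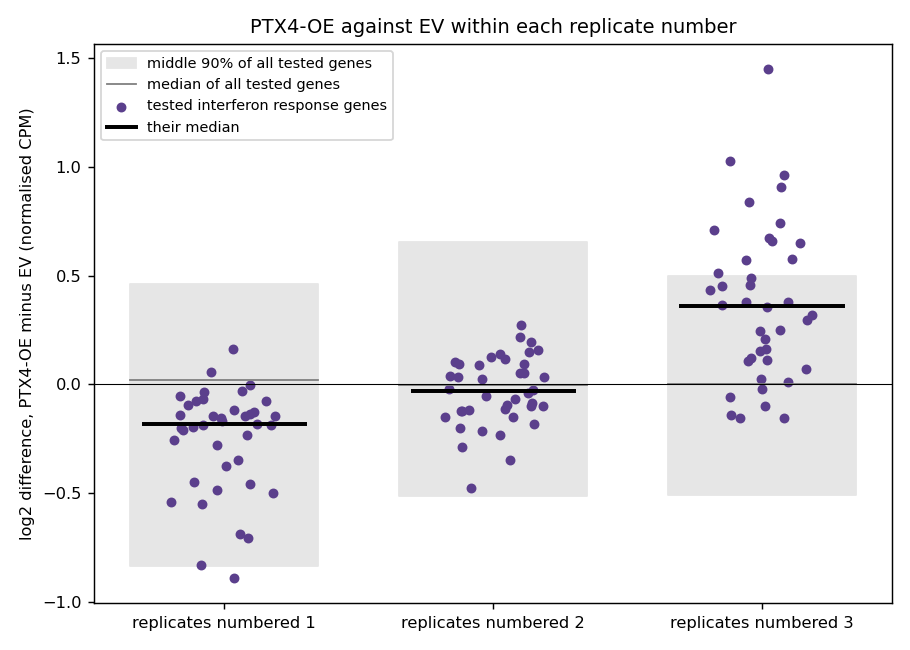
Log2 difference of PTX4-OE minus EV in normalised CPM within each replicate number, 1 point for each of the 40 tested genes, with their median as a black line and the middle 90% and median of all tested genes in grey. The medians are -0.18, -0.033 and 0.36, so the points lie mostly below 0 on the left and above 0 on the right.

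Leaving out a pair changed which genes were called. Without the libraries numbered 3, the fit with blocks called 8 of 41 tested genes lower in PTX4-OE, beside 0.960% of all genes, and 0 higher, beside 0.236%. IFI27, at 130.3 and 174 TPM in PTX4-OE replicates 1 and 2, against 245 and 255 TPM in EV replicates 1 and 2, had a log2 fold change of -0.69 (SE 0.073, adjusted p = 4.86e-18) by edgeR. Both PTX4-OE libraries lay below both EV libraries in TPM, as for the other genes called except IFI6. IFI44L was at -0.55 (SE 0.078, adjusted p = 2.47e-09) and SIGLEC1 at -0.52 (SE 0.073, adjusted p = 1.06e-09). IFITM1 was at -0.47 (SE 0.11, adjusted p = 0.00583), TRIM22 at -0.35 (SE 0.077, adjusted p = 0.00119), IFI44 at -0.32 (SE 0.089, adjusted p = 0.0267), IFI6 at -0.30 (SE 0.068, adjusted p = 0.00185) and LGALS3BP at -0.28 (SE 0.066, adjusted p = 0.00349). Without the libraries numbered 1, IRF7 was the 1 gene called higher, at 0.40 (SE 0.077, adjusted p = 0.0137), beside 0.166% of all genes. Without those numbered 2, 0 were called. Each of these fits has 2 libraries per construct, so its standard errors and p-values lean on spread shared across genes. Between the libraries numbered 3, the 8 genes called lower were all higher in PTX4-OE, by log2 differences of 0.21 (IFI44) to 1.45 (IFI44L).

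Other genes of the pathway were taken from further lists. Of 42 further interferon-stimulated genes, 41 were tested. PTX4-OE against EV called 0 of them in either fit, and the F test of number called 25 with number 1 above number 3 and 1 below (SP100, at -0.21), beside 27.4% and 24.1% of all genes, with a median difference of 0.33. LAP3, an aminopeptidase, stood at 103, 83.1 and 52.1 TPM in PTX4-OE, against 113, 84.9 and 47.5 TPM in EV (number 1 minus number 3 1.20, edgeR adjusted p = 2.14e-08). The largest log2 fold changes between constructs with blocks were those of BATF2 at 0.80 (SE 0.34), LAMP3 at 0.34 (SE 0.47), TYMP at -0.32 (SE 0.072) and TNFSF10 at -0.30 (SE 0.10), with edgeR adjusted p values of 0.523, 0.896, 0.0924 and 0.353. BATF2 and LAMP3 stayed under 1 TPM in all 6 libraries.

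Of 12 tested genes of the interferon receptor, its signalling and its inhibitors, 0 passed between constructs, and the F test of number passed 4 with number 1 above and 4 below, shares near the 27.4% and 24.1% of all genes, with a median of 0.069. The fitted difference of number 1 from number 3 was 0.18 for IFNAR1 (edgeR adjusted p = 0.0188), 0.16 for IFNAR2 (edgeR adjusted p = 0.137), 0.025 for JAK1 and 0.11 for TYK2. The suppressors SOCS1 and SOCS3 went the opposite way, at -1.01 (edgeR adjusted p = 0.0181) and -1.30 (edgeR adjusted p = 0.00268). SOCS3 stood at 0.95, 1.72 and 1.68 TPM in PTX4-OE, against 1.18, 1.65 and 4.22 TPM in EV, highest in EV replicate 3. Between constructs, SOCS3 at -0.63 (SE 0.22), PIAS1 at -0.067 (SE 0.050), PTPN11 at 0.085 (SE 0.053) and STAT3 at 0.074 (SE 0.053) did not pass with blocks, the smallest edgeR adjusted p being 0.386.

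Among 19 tested sensors, adaptors and factors that induce interferon, 0 passed between constructs, and the F test of number passed 9 with number 1 above number 3 and 3 below, beside 27.4% and 24.1% of all genes, with a median of 0.28. RIGI, the sensor of short viral RNA, was at 0.60 (edgeR adjusted p = 0.00632) and DHX58, its regulator, at 0.57 (edgeR adjusted p = 0.00119). The adaptors MAVS and STING1 were at -0.37 and -0.34 (edgeR adjusted p = 0.000153 and 0.000735). Between constructs with blocks, TLR3 at 0.49 (SE 0.45), IKBKE at 0.13 (SE 0.084), TLR8 at -0.81 (SE 0.38) and TLR9 at -0.18 (SE 0.11) had the largest log2 fold changes in each direction, none with an edgeR adjusted p below 0.576. TLR3 and TLR8 stayed under 0.4 TPM.

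Of 8 tested genes that respond more to interferon gamma, 0 passed between constructs and 4 passed by number, near the 51.6% of all genes, each with number 1 above number 3. GBP1, a guanylate-binding GTPase, had 43, 26 and 3 counts in PTX4-OE replicates 1 to 3, against 34, 30 and 4 in EV replicates 1 to 3 (fitted difference 3.52, edgeR adjusted p = 0.000123). GBP5 stood at 0.56, 0.46 and 0.18 TPM in PTX4-OE, against 0.95, 0.68 and 0.23 TPM in EV (1.93, adjusted p = 2.36e-05). Between constructs, ICAM1 at 0.19 (SE 0.20), WARS1 at 0.11 (SE 0.052), GBP5 at -0.62 (SE 0.19) and CIITA at -0.29 (SE 0.17) did not pass with blocks, the smallest edgeR adjusted p being 0.285.

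**Figure D4:**
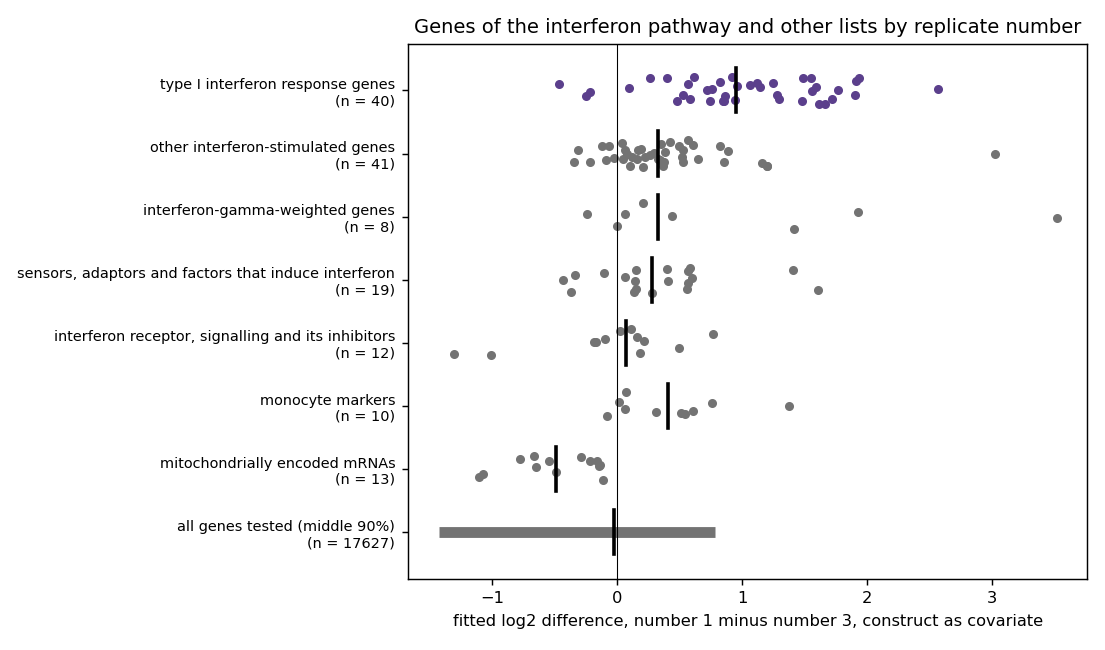
Fitted log2 difference of number 1 from number 3 for each tested gene of 7 lists, with black bars at the medians and the middle 90% of all 17627 tested genes as a grey bar. The interferon response genes have a median of 0.95, the other lists run from -0.49 for mitochondrially encoded mRNAs to 0.41 for monocyte markers, and all genes lie at -0.026.

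Other features of the libraries moved with the replicate number as well. Mitochondrially encoded mRNAs, a sign of RNA quality, took 2.51%, 4.83% and 4.35% of counts in PTX4-OE replicates 1 to 3. In EV replicates 1 to 3 they took 4.29%, 5.31% and 4.79%. Of these mRNAs, 12 of 13 passed the F test with number 1 below number 3, beside 24.1% of all genes. The shift lay mostly in PTX4-OE, with a median log2 difference of number 1 from number 3 of -0.91, against -0.13 in EV. Both number 1 libraries lay below both number 3 libraries for 7 of 13, beside 39.1% of all genes. The 10 monocyte markers summed to 745, 627 and 632 TPM in PTX4-OE, against 737, 671 and 677 TPM in EV. Of them 6 passed with number 1 above number 3, beside 27.4% of all genes. One of these, LYZ, the lysozyme gene, stood at 65.8, 24.6 and 19.3 TPM in PTX4-OE, against 50.5, 29.6 and 28.9 TPM in EV. Of plasmacytoid dendritic cell markers, summed at 6.53 to 8.32 TPM in PTX4-OE and 5.35 to 8.52 TPM in EV, IL3RA passed with number 1 below number 3 and TCF4 did not pass. Lymphocyte markers, summed at 42.7 to 52.6 TPM in PTX4-OE and 39.7 to 46.6 TPM in EV and made up mostly of NCAM1, had 3 tested genes and 0 passed. Epithelial and fibroblast markers, summed at 1.55 to 2.29 TPM in PTX4-OE and 1.27 to 2.2 TPM in EV, had 2 tested genes and 0 passed. Total counts were alike in numbers 1 and 3 within each construct, but other measures of the libraries were not. Genes with a count above 0 numbered 25331 in PTX4-OE replicate 1 and 27813 in replicate 3, and 25604 and 27277 in EV. The TMM factors of replicates 1 and 3 were 0.953 and 1.05 in PTX4-OE and 0.969 and 1.037 in EV. The part of these features in the interferon response genes' pattern was not tested.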

How the data were processed

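The submitters' processing notes name STAR, featureCounts, FastQC 0.11.5 and the builds GRCh38 and hg38, without their roles. For settings, other versions, annotation release and strandedness, the sources used here give nothing. Deposited values were the authors' expected counts, of which 7.92% were not whole, and TPM, which the authors had scaled for gene length to a fixed sum per library. A deposited FPKM table was not used. Per the labels, mRNA was captured on oligo(dT) beads.

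Gene names came from Ensembl identifiers and coordinates from GENCODE release 44 on GRCh38. Of the 42 genes, 11 had fractional counts and 20 overlap a gene on the opposite strand, so their reads may be shared. The 29 genes listed on both X and Y were summed. After rounding, the quasi-likelihood F test of edgeR 4.0.16 was run under R 4.3.3 (filterByExpr, TMM, Benjamini-Hochberg adjustment over all 17627 tested genes), with DESeq2 1.42.0 and limma 3.58.1 as alternatives. Standard errors come from the fold change and its F statistic. Normalised CPM uses TMM-scaled library sizes.

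The main design had no block. Pairing by number was judged over 17626 genes by correlating the deviations of a PTX4-OE and an EV library from their groups. For equal numbers this was 0.632, 0.130 and 0.699 for numbers 1, 2 and 3, all above the limit of 0.1. For unequal numbers it ran from -0.643 to 0.117, the highest being PTX4-OE 1 with EV 2, close to the value of number 2. The numbers were taken as pairs, so blocked values are given where they bear on a call. The biological coefficient of variation was 0.217 without the block and 0.055 with it. Every library differed from every other beyond sampling noise (smallest chi-square per degree of freedom 6.54).

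Members, lists and tests were chosen with earlier results of these data known. Per-library values are given for IFNB1, for the 10 genes of highest mean TPM, the 8 with the largest fold change, the 8 with the largest F of number and every gene called, and per list for up to 2 genes of each direction. An item counted in a list is not reported here. Other genes named were chosen after their values were seen. Where intervals are binomial, they cover counting error only and treat the genes as independent draws.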

Additional observations from a re-analysis of the deposited data

Results flagged for a closer look

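RSAD2 went opposite ways in the constructs. Its log2 difference of number 1 from number 3 was -0.62 in PTX4-OE and 0.17 in EV, so that the difference in PTX4-OE minus that in EV was -0.79. Each value rests on 1 library per number, and the difference was not tested.

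The summed TPM of the 42 genes was lower in PTX4-OE between the libraries numbered 1 (log2 ratio -0.23) and higher between those numbered 3 (0.30), a change of 0.54 from number 1 to number 3. This difference was not tested either.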

How the results depend on the processing

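With 1 exception, the alternatives that kept all 6 libraries called 0 of the interferon response genes between PTX4-OE and EV. The exception, the replicate block with no filter, was chosen after seeing the data and called 3 higher and 1 lower, with 106 genes higher and 190 lower in all. Over all genes, the replicate block gave 5 genes higher and 41 lower, against 1 and 0 without it. DESeq2 gave 2 lower, or 6 higher and 32 lower with the replicate block. The limma-voom fit gave 0 higher, the fit with no filter 1 lower, and log2(TPM + 0.1) 2 lower. Leaving out 1 library at a time without blocks kept 1 gene higher and 0 lower, with the median log2 fold change of the response genes from -0.31 (without EV replicate 3) to 0.24 (without EV replicate 1). With the replicate block and without 1 pair, 9 to 41 genes were higher and 23 to 167 lower (30 and 58 without number 1), and of the response genes 0 to 1 were higher and 0 to 8 lower. The sign of the small median depended on the fit: it was -0.051 by edgeR, 0.027 by limma-voom and 0.043 on log2(TPM + 1). The cause was not tested.

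The pattern by replicate number changed less. The response genes called ran from 33 (DESeq2 likelihood ratio test) to 39 (without a filter or without PTX4-OE replicate 3), and the median difference of number 1 from number 3 from 0.81 to 1.17. Of the calls of single genes under these alternatives, 11 were lost, those of EPSTI1, IRF7, IFIT5, IFI44L and PARP14, and 359 were unchanged. Where a library was left out, its number rests on 1 library, assumed to vary like the rest. The share of response genes with the response-element core was 72.7% with and without the 50 bases after the start, while the share of their promoters, with every listed start counted, was 65.1% with them and 62.8% without. At this depth IFNB1 and CXCL10, with 0 to 20 counts per library, allow no firm comparison.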

Other observations

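Holding the response-element core was set beside the difference between replicate numbers. Of tested genes with a promoter in the table, 443 other genes held the core and 11141 did not, and their median log2 differences of number 1 from number 3 were 0.017 and 0.053. Among the response genes, the 23 tested with the motif had a median of 0.96 and the 8 without it 0.75. Those 8 included CMPK2, OAS1 and IFI35, which were called with number 1 above number 3, and STAT2 and XAF1, called below. MX1 and RSAD2 hold the motif and were not called. These values are a description across genes, which are not independent replicates.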
